A study of Rattus norvegicus with 7 samples.

Results

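The heat shock proteins and chaperone families were followed in rat testis after 1 dose of cadmium chloride, a salt of a metal known to damage this organ. Members were chosen by name: probe sets that carry 1 gene symbol beginning with Hspa, Hspb, Hspd, Hspe, Hsph, Hsp90, Dnaj or Bag followed by a letter or digit, or with Cct followed by a digit, without Hspa5 and Hspbap1. This gave 113 of the 31042 probe sets on the array other than controls, for 75 of the 14217 genes named there by a probe set of their own. The testes came from adult Sprague-Dawley rats, an outbred stock, which had received 3 mg/kg body weight of cadmium chloride intraperitoneally and were killed 8 h later (n = 2) or 20 h later (n = 2), or were untreated (n = 3). The labels name no vehicle injection for the untreated rats. Each array is called a biological replicate there, read here as 1 animal. The whole organ was measured, so fewer cells of a type and less RNA per cell cannot be told apart. Probe sets that name several genes were not used. Hspa1b, Hspa8, Hsp90aa1 and Cct6b had no probe set of their own and have no value here.

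Chaperones bind proteins that are unfolded or not yet folded. Hsp70 proteins (Hspa genes) do so in cycles driven by ATP, which J-domain proteins (Dnaj genes) start and which nucleotide exchange factors such as the BAG proteins and Hsp110 (Hsph1) end by releasing ADP. Small heat shock proteins (Hspb genes) hold unfolded chains, Hsp90 matures kinases and steroid receptors, and the ring-shaped chaperonin CCT folds actin and tubulin. In stressed cells heat shock factor 1 binds heat shock elements in DNA and switches on genes such as Hspa1a, whereas the testis also makes chaperones of its own, such as Hspa2, which in mice is needed for meiosis in spermatocytes.

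Promoters were read from RefSeq (build GRCr8) to describe in these kinds of member the sequence that heat shock factor recognises. The 250 bases before the annotated start were searched on both strands for GAANNTTC and TTCNNGAA, a pair of inverted heat shock element units, and for the triple units GAANNTTCNNGAA and TTCNNGAANNTTC, each of which contains overlapping pairs. A pair was present in 4534 of 33469 promoters in the table (13.6%), in 16 of the 63 promoters found for member genes (25.4%), in 8 of 10 stress-inducible members (80.0%) and in 1 of 7 germ-cell members (14.3%). The stress-inducible genes were listed as genes switched on under stress, so their high share is no independent evidence. The germ-cell share was near that of all promoters. A triple was present in 222 of all promoters (0.66%) and in Hsph1, Hspd1 and Hspe1 among the members. The promoters of 4 genes are shown as examples, with matching bases in capitals, all on the plus strand. They are Hsph1 (chr12:10427118-10427367) and Hspe1 (chr9:64084077-64084326) of the stress-inducible genes, and Hspa2 (chr6:100864192-100864441) and Hspb9 (chr10:86141353-86141602) of the germ-cell genes.
Hsph1: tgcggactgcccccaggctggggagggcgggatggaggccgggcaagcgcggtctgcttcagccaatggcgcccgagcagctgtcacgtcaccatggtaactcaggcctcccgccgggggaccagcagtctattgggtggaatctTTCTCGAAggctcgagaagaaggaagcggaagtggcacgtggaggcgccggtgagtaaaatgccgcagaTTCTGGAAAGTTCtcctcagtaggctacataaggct
Hspe1: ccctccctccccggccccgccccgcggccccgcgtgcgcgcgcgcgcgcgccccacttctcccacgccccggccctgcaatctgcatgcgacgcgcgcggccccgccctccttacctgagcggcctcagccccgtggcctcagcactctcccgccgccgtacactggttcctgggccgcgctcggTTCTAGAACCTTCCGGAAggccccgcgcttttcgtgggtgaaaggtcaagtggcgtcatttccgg
Hspa2: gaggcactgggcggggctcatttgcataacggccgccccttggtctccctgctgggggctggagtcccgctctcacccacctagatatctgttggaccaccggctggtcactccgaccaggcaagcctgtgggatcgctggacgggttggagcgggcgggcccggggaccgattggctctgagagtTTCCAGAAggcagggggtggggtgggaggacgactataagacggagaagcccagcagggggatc
Hspb9: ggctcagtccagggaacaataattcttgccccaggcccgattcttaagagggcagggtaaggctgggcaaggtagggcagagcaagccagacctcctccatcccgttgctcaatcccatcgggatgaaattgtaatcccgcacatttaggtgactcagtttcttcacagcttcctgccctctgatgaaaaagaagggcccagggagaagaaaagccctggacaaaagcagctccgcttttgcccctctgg
The Hsph1 promoter held 1 separate pair and a triple, with matches that begin 105, 36 and 31 bases before the start. In Hspe1 the overlapping matches begin 65, 60 and 55 bases before the start. Hspe1 and Hspd1 lie head to head, 290 bases between their starts, and share this element. Hspa2, the 1 germ-cell member with a match, held 1 pair, 64 bases before the start, and Hspb9 held none. For Hspa1a the table's window lies inside the annotated span of its neighbour Hspa1l and held no match, and it is not shown. A match describes the letters in this window and is not evidence of binding.

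Signals were compared as log2(signal + 15), and a fold change on this scale understates the change of dim genes. Of the 113 member probe sets, 98 (71 genes) exceeded the 40th percentile of their array on at least 2 arrays and were tested. Of these, 91 exceeded it on all 7 arrays, and Dnajc22, Dnajc6, Hspa12a and Hspb2 had no tested probe set. The arrays were hybridized on 3 days. Day 1 held 20 h replicate 1 and untreated replicate 1, day 2 untreated replicate 2 alone, and day 3 both 8 h arrays, 20 h replicate 2 and untreated replicate 3. The instrument record of untreated replicate 2 gives another stain setting and a mouse sample type, although its array type and labels are those of rat. On 22 member probe sets all day 3 arrays lay above all arrays of the other days, and on 19 they lay below, against 10.6% and 18.7% of all probe sets tested. The main members are therefore given also from a fit that blocks on the day (the day-blocked value). In that fit untreated replicate 2, alone on its day, does not bear on group differences, so untreated replicates 1 and 3 are the only controls. The day-blocked value at 8 h also draws on the day 1 arrays, so it is not the mean of the same-day differences. For some, same-day differences, each a cadmium array minus the untreated array of its day, are added. Spermatid markers, the transcripts of maturing sperm cells, were measured for 10 of 12 genes, and their summed signal was 149276 to 156556 on the day 3 arrays and 104200 to 112711 on the others.

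In no comparison did a member pass limma's test at an adjusted p of 0.05 over all 20857 probe sets tested (0 of 98 members each time). The share of all probe sets that passed was 0% at 8 h against untreated, 0% at 20 h against untreated and 0% at 20 h against 8 h. Among members the adjusted p was 0.836 or more at 8 h, 0.999 or more at 20 h, and 1 for 20 h against 8 h. At an unadjusted p under 0.05, limma gave 1 member higher and 1 lower at 8 h, against 1.16% and 4.06% of all probe sets. At 20 h it gave 2 higher and 0 lower, against 0.767% and 2.34%, and 1 of the 2 is a Hspb8 probe set that passed the filter on cadmium arrays only. Between 20 h and 8 h it gave 0 higher and 0 lower, against 1.22% and 0.7%. Over the 71 genes, with the probe set of highest mean for each, the median log2 fold change was 0.06 at 8 h and 0.06 at 20 h, where that of all probe sets was -0.08 and -0.05. After quantile normalization the medians of the 71 genes were -0.01 and 0.01, and those of all probe sets 0.01 and 0.00. Day-blocked they were 0.03 and 0.03, against -0.02 and -0.04 for all probe sets. The values that follow describe members that did not pass.

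Hspa1a, the inducible cytosolic Hsp70, had a signal of 580.2 and 140.9 at 8 h, of 284.1 and 148.6 at 20 h, and of 175.4, 160.0 and 201.4 in untreated testis. At each time 1 cadmium animal lay above every untreated one and the other lay below every untreated one, so both cadmium groups spanned the untreated range. The mean was 361 ± 311 (SD, n = 2) at 8 h, 216 ± 95.8 (SD, n = 2) at 20 h and 179 ± 20.9 (SD, n = 3) in untreated testis. The log2 fold change was 0.66 ± 0.48 (SE) at 8 h, with limma's adjusted p = 0.836, and 0.20 ± 0.48 at 20 h, with adjusted p = 0.999. Against the untreated array of the same day, Hspa1a was 2.88-fold on 8 h replicate 1 and 1.62-fold on 20 h replicate 1. It was 0.700-fold on 8 h replicate 2 and 0.738-fold on 20 h replicate 2. One library decides each direction: without 8 h replicate 1 the log2 fold change at 8 h was -0.31, and without 8 h replicate 2 it was 1.62. At 20 h it was -0.24 without replicate 1 and 0.63 without replicate 2. The day-blocked values were 0.76 at 8 h and 0.12 at 20 h.

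The 2 cadmium arrays with high Hspa1a also had the lowest summed signal of the endothelial markers, the genes of blood vessel lining. With 8 of 10 markers measured, this sum was 407 and 624 at 8 h, 371 and 701 at 20 h, and 729 to 830 in untreated testis. Cldn5 weighed heavily in it, with 62.7 and 52.5 on the 2 arrays with high Hspa1a and 231.9 to 241.4 in untreated testis. Emcn, Kdr, Tek and Vwf also lay below the untreated range on both of these arrays. Eng and Tie1 did so on 1 of them, and Egfl7 on neither. No endothelial marker with a probe set was listed at 0, though Kdr, which receives the vessel growth signal VEGF, stood at 3.7 on 8 h replicate 1. The summed signal of 8 Leydig cell markers, the testosterone-producing cells, was 13371 and 9233 at 8 h, 3806 and 9388 at 20 h, and 7266 to 10005 in untreated testis. The 2 arrays with high Hspa1a thus stood at opposite ends for Leydig markers. Neutrophil and macrophage markers were measured for 4 of 11 genes, Cd68, Cd163, Mrc1 and Csf1r, so none was a neutrophil gene. They summed to 1060 and 1087 at 8 h, 1202 and 1110 at 20 h, and 1032 to 1111 in untreated testis, most of it Mrc1 (817.7 to 931.4). Cd163 was above the untreated range on all 4 cadmium arrays (77.2 to 137.3, untreated 37.4 to 52.3). Csf1r was below it on all 4 (70.8 to 110.0, untreated 122.9 to 128.9). Cd68 and Mrc1 overlapped. The part of these cell types in the Hspa1a values was not tested.

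**Figure D1:**
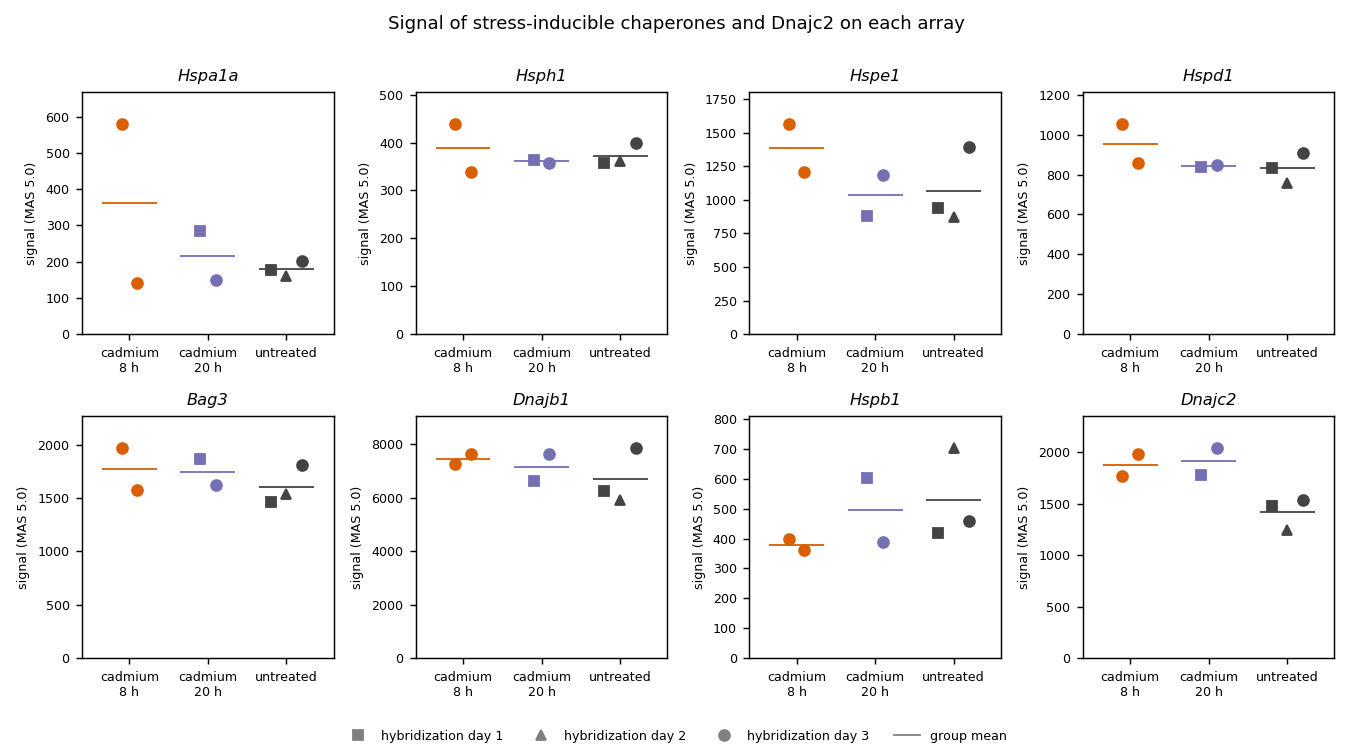
MAS 5.0 signal (linear axis from 0) of 7 stress-inducible chaperones and of Dnajc2 on each array, with cadmium 8 h, cadmium 20 h and untreated testis from left to right, a horizontal line at each group mean and a marker shape for each hybridization day. Hspa1a splits each cadmium pair, at 580.2 and 140.9 for 8 h and 284.1 and 148.6 for 20 h. Dnajc2, on its brighter probe set, lies above all untreated animals on the 4 cadmium arrays.

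The stress-inducible members were described as a list of 14 genes, of which 11 were measured. At 8 h the mean was higher for 9 of the 11 and lower for 2. Their median log2 fold change was 0.17, and after quantile normalization it was 0.08 with 8 higher and 3 lower. When the fit blocked on the day the median was 0.03. At 20 h, 6 were higher and 5 lower, with a median of 0.02, and 5 and 6 with a median of 0.00 after quantile normalization. None of the 11 passed limma's test at either time, and 0 had an unadjusted p under 0.05. At each time the list differed between the animals. On 8 h replicate 1, 8 of the 11 exceeded the same-day untreated array, with a median difference of 0.14, and on 20 h replicate 1 this held for 10 of the 11, with a median of 0.08. On 8 h replicate 2 and on 20 h replicate 2 only 1 of the 11 did, with medians of -0.16 and -0.15. The 2 arrays in which most members were above their day's control were those with high Hspa1a, itself 1 of the 11. Over all 71 member genes, 40 were above the same-day control in the first and 35 in the second 8 h animal, and 48 in the first and 30 in the second 20 h animal. In the same order the counts over all 20857 probe sets were 10392, 10121, 8761 and 9972. Untreated replicate 1 is the control for 20 h replicate 1 alone. The other 3 cadmium arrays share untreated replicate 3, which stood 0.16 above the untreated mean in the median of the stress-inducible list.

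Hsph1, the Hsp110 exchange factor, had 439.3 and 338.9 at 8 h, 364.5 and 357.1 at 20 h, and 357.2, 361.0 and 398.4 in untreated testis (1388898_at). Its log2 fold change was 0.05 ± 0.17 (SE) at 8 h and -0.04 ± 0.17 at 20 h, and day-blocked 0.00 and -0.06. The highest value was again that of 8 h replicate 1 and the lowest that of 8 h replicate 2. The second, dimmer Hsph1 probe set gave -0.05 ± 0.39 and 0.15 ± 0.39, and day-blocked 0.64 and 0.42.

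Hspb1, the small heat shock protein Hsp27, had 398.3 and 360.3 at 8 h, 602.5 and 388.0 at 20 h, and 419.5, 704.2 and 459.2 in untreated testis. Both 8 h animals lay below all untreated ones, with a log2 fold change of -0.43 ± 0.25 (SE; limma's adjusted p = 0.836), but day-blocked it was -0.08. At 20 h the Hspb1 groups overlapped, and the log2 fold change was -0.09 ± 0.25, which turned to 0.14 when day-blocked. The same-day differences were -0.20 and -0.34 at 8 h, and 0.51 and -0.23 at 20 h.

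Hspb8, a small heat shock protein that works with Bag3 in the disposal of damaged proteins, was dim, and its probe sets differed. The one with the higher mean, 1387282_at, had 48.9 and 27.5 at 8 h, 56.5 and 22.0 at 20 h, and 38.9, 64.6 and 32.5 in untreated testis. Its groups overlapped, with log2 fold changes of -0.18 ± 0.41 (SE) at 8 h and -0.19 ± 0.41 at 20 h, and day-blocked 0.33 and 0.02. The other, 1388721_at, had 31.4 and 36.7 at 8 h, 54.5 and 45.1 at 20 h, and 17.3, 11.9 and 27.5 in untreated testis. It exceeded the percentile of the filter on 1 of the 2 arrays at 8 h, on 2 of 2 at 20 h and on 0 of 3 untreated arrays. It was tested only because it was higher on cadmium arrays, so its log2 fold changes of 0.56 at 8 h and 0.96 at 20 h are a description, with no p. Of the 7 tested member probe sets that did not exceed the percentile on every array, this was the 1 that did so on cadmium arrays alone.

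Bag3, the exchange factor that pairs with Hspb8, had 1973.3 and 1579.1 at 8 h, 1865.9 and 1623.3 at 20 h, and 1466.2, 1542.4 and 1809.5 in untreated testis. The highest values were those of the 2 arrays with high Hspa1a, and the groups overlapped. The log2 fold change was 0.14 ± 0.16 (SE) at 8 h and 0.12 ± 0.16 at 20 h, and day-blocked 0.09 and 0.09.

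Hspe1 and Hspd1, the mitochondrial co-chaperonin and chaperonin whose shared promoter element is shown above, had their highest signal on 8 h replicate 1. Hspe1 had 1568.1 and 1208.4 at 8 h, 881.6 and 1186.2 at 20 h, and 938.2, 871.6 and 1391.2 in untreated testis. Its log2 fold change was 0.39 ± 0.23 (SE) at 8 h and -0.03 ± 0.23 at 20 h, and day-blocked 0.02 and -0.16. Hspd1 had 1055.1 and 856.6 at 8 h, 840.6 and 848.1 at 20 h, and 831.1, 759.9 and 910.1 in untreated testis. For Hspd1 the log2 fold change was 0.19 ± 0.15 (SE) at 8 h and 0.02 ± 0.15 at 20 h, and day-blocked 0.09 and -0.04. In both genes all day 3 arrays lay above the arrays of days 1 and 2, so that much of the order of their values follows the day.

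Among the J-domain members of the list, Dnajb1, the Hsp40 partner of inducible Hsp70, had 7268.1 and 7616.2 at 8 h, 6627.6 and 7640.0 at 20 h, and 6261.4, 5918.3 and 7861.2 in untreated testis (1383302_at). The log2 fold change of Dnajb1 was 0.17 ± 0.15 (SE) at 8 h and 0.10 ± 0.15 at 20 h. Again the order followed the day, and the day-blocked values were -0.05 and 0.02. Dnaja4, another cytosolic J protein, had 2659.9 and 2366.3 at 8 h, 2263.9 and 2373.7 at 20 h, and 2071.8, 2228.9 and 2239.9 in untreated testis (1395572_at). All 4 cadmium animals lay above all untreated ones, by 0.20 ± 0.13 (SE) on the log2 scale at 8 h and 0.09 ± 0.13 at 20 h, and day-blocked by 0.17 and 0.11. A second Dnaja4 probe set, 1398343_at, gave -0.07 ± 0.14 at both times, and day-blocked -0.06 and -0.09. On it both 20 h arrays, at 492.0 and 482.8, lay below all untreated ones, at 535.5, 500.6 and 503.3. The 2 probe sets thus went opposite ways at 20 h. Dnaja1, a J protein of the same subfamily, gave 0.22 ± 0.15 at 8 h and 0.08 ± 0.15 at 20 h, and day-blocked 0.03 and 0.00 (1398819_at). Its dimmer probe set, 1368852_at, gave -0.03 ± 0.15 and -0.13 ± 0.15, and day-blocked -0.01 and -0.08. Dnajb4 gave 0.07 ± 0.15 and -0.02 ± 0.15, and day-blocked -0.07 and -0.02.

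The germ-cell members were a list of 11 genes, of which 7 were measured. At 8 h the mean was higher for 4 of the 7 and lower for 3, and their median log2 fold change of 0.14 turned to -0.11, with 7 of 7 lower, after quantile normalization and to -0.05 in the fit that blocks on the day. At 20 h, 5 were higher and 2 lower, and the median of 0.10 turned to -0.01 after quantile normalization and was 0.14 in the day-blocked fit. The lower genes at both times include Hspa1l, which passed the filter on untreated arrays alone, so the filter favoured its place there. None passed limma's test, and 0 had an unadjusted p under 0.05. The same-day medians were 0.00 and -0.02 at 8 h and -0.02 and 0.15 at 20 h. The mitochondrial list, described below, had 0.11 and -0.14 at 8 h and 0.07 and -0.12 at 20 h, higher on replicate 1 of each pair as in the stress-inducible list, with which it shares Hspd1 and Hspe1. Differences between lists were not tested.

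Hspa2, the Hsp70 of spermatocytes, had 7296.1 and 6647.7 at 8 h, 7458.6 and 6142.1 at 20 h, and 7192.3, 6610.7 and 5272.8 in untreated testis (1369841_at). The groups overlapped at both times, with a log2 fold change of 0.14 ± 0.16 (SE) at 8 h and 0.10 ± 0.16 at 20 h. Day-blocked values were 0.36 and 0.14, and the same-day differences were 0.47 and 0.33 at 8 h and 0.05 and 0.22 at 20 h. The second Hspa2 probe set gave 0.08 ± 0.16 and 0.18 ± 0.16, and day-blocked -0.05 and 0.05. Hspa1l, an Hsp70 of spermatids and the neighbour of Hspa1a, was dim, with 24.7 and 32.2 at 8 h, 38.1 and 33.1 at 20 h, and 55.5, 78.3 and 24.8 in untreated testis. Its lowest values were those of day 3, and it passed the filter on 2 untreated arrays alone. Its log2 fold changes of -0.56 and -0.34, and day-blocked -0.05 and -0.07, are therefore a description. On 8 h replicate 1 the same-day log2 difference was 1.46 for Hspa1a and 0.00 for Hspa1l. Hspa1l was dim on both arrays compared, at 24.7 and 24.8, so its value cannot show whether it changed.

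Hspb9, a small heat shock protein made in the testis, had 17242.7 and 17817.6 at 8 h, 12445.3 and 18195.7 at 20 h, and 12659.7, 11798.1 and 20199.1 in untreated testis. All day 3 arrays lay above the others, and no cadmium array of day 3 exceeded the untreated array of that day. Its log2 fold change was 0.28 ± 0.24 (SE) at 8 h and 0.06 ± 0.24 at 20 h, which turned to -0.17 and -0.09 when day-blocked. Hspa4l, a germ-cell relative of Hsp110, had 1341.0 and 1503.3 at 8 h, 1395.4 and 1452.8 at 20 h, and 1437.6, 1387.5 and 1647.2 in untreated testis. It gave -0.07 ± 0.14 and -0.06 ± 0.14, and day-blocked -0.18 and -0.11.

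Dnajb13, a J protein of the sperm tail axoneme, was the germ-cell member whose 20 h arrays did not overlap untreated ones. It had 2070.5 and 1991.7 at 8 h, 2366.3 and 2371.5 at 20 h, and 1913.4, 2043.6 and 2212.6 in untreated testis. Both 20 h animals, from different hybridization days, lay above the other 5 animals. The log2 fold change was 0.21 ± 0.13 (SE) at 20 h and -0.02 ± 0.13 at 8 h, with limma's adjusted p = 0.999 at 20 h. Day-blocked these were 0.20 and -0.07. Dnajb3, a spermatid J protein in mice, gave 0.21 ± 0.15 at 8 h and 0.17 ± 0.15 at 20 h, and day-blocked 0.04 and 0.14. Dnajb7 gave 0.20 ± 0.18 and 0.36 ± 0.18, and day-blocked 0.11 and 0.29.

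**Figure D2:**
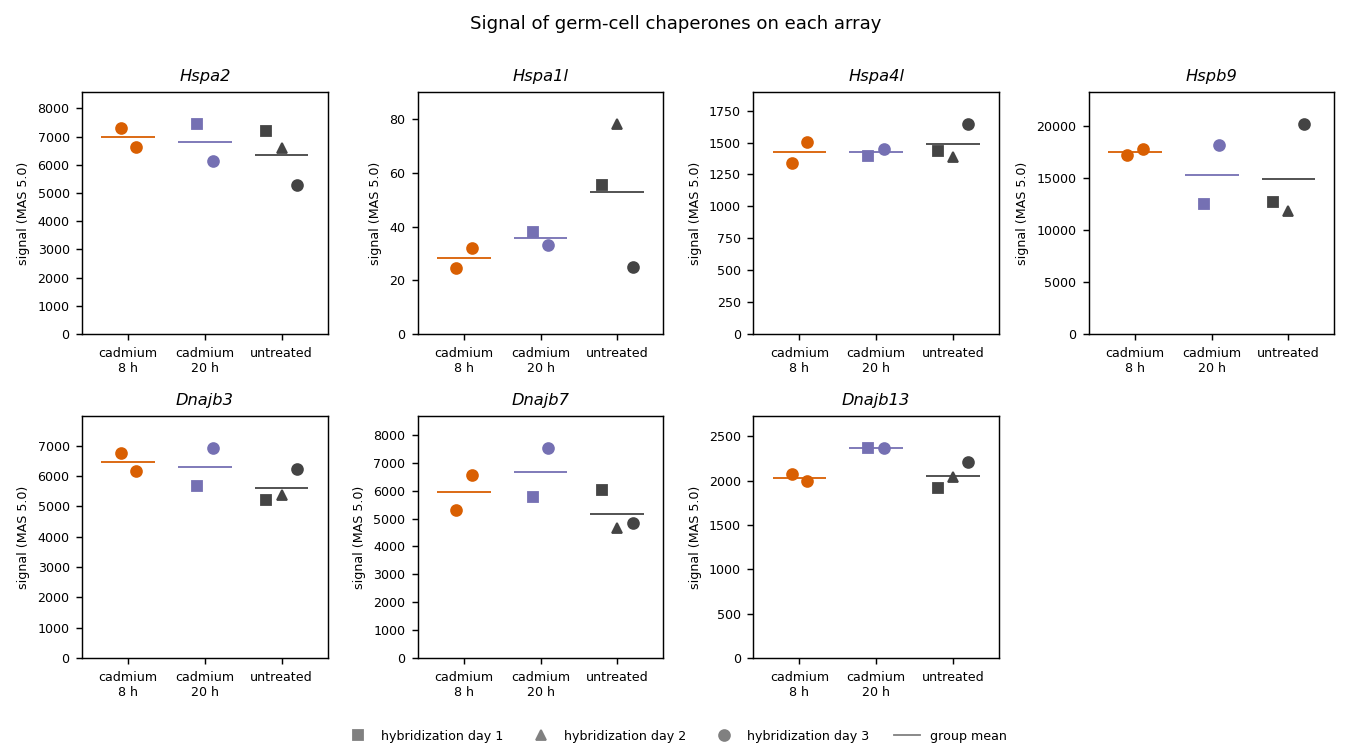
MAS 5.0 signal (linear axis from 0) of the 7 measured germ-cell chaperones on each array, with cadmium 8 h, cadmium 20 h and untreated testis from left to right, a line at each group mean and a marker shape for each hybridization day. Hspb9 is high on the day 3 arrays of every group, and both 20 h values of Dnajb13, 2366.3 and 2371.5, lie above the other 5.

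**Figure D3:**
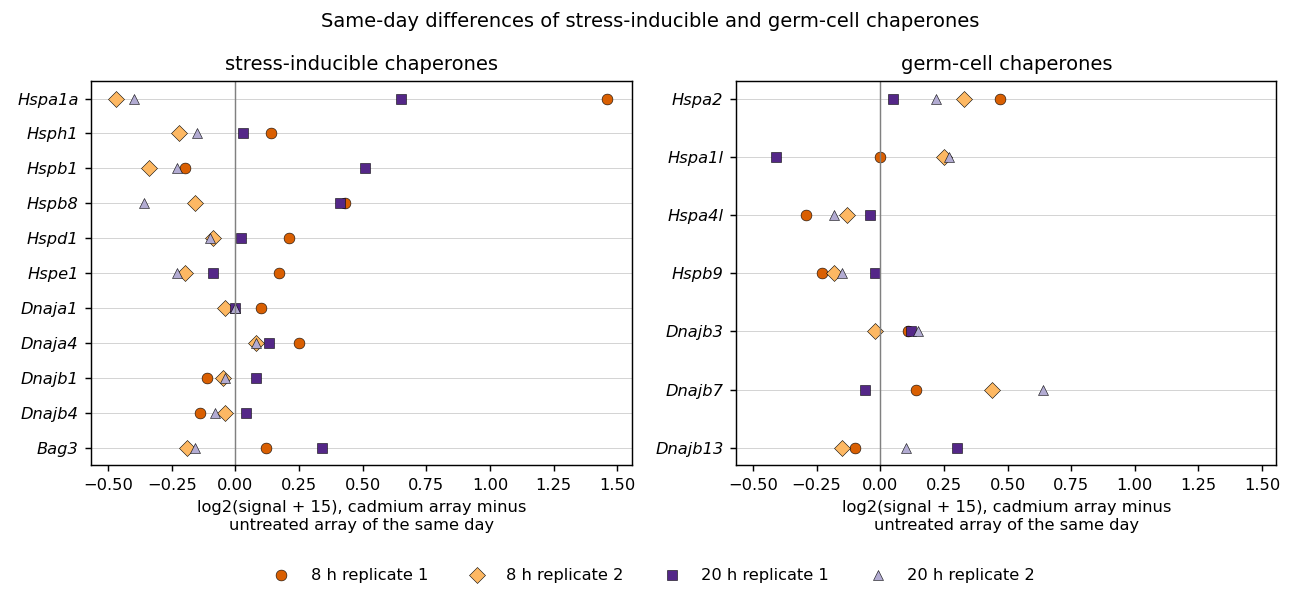
Difference in log2(signal + 15) between each of the 4 cadmium arrays and the untreated array hybridized on the same day (x axis), for the stress-inducible (one panel) and germ-cell chaperones (other panel), 1 gene per line and 1 marker per cadmium array. Hspa1a spans -0.47 to 1.46, and most stress-inducible genes lie right of 0 for 8 h replicate 1 and 20 h replicate 1 and left of 0 for the other arrays.

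The subunits of the CCT chaperonin moved with the hybridization day. The mean of all 7 measured subunits was higher at both times, by a median log2 fold change of 0.28 at 8 h and 0.10 at 20 h. After quantile normalization 5 of 7 were higher at 8 h, with a median of 0.11, and 4 of 7 at 20 h, with a median of 0.00. In the day-blocked fit these medians came to -0.02 and 0.00, with 3 of 7 higher at each time. Cct5 shows the pattern: 9987.6 and 10943.7 at 8 h, 7040.7 and 10726.2 at 20 h, and 6634.9, 6833.2 and 11404.7 in untreated testis (1376570_at). The 4 day 3 arrays stood above the 3 others whatever the treatment, and 5 of the 7 subunits had every day 3 array above every other. Of the spermatid markers, 9 of 10 had this order too, and their part in the CCT values was not tested. Cct6a was the subunit whose cadmium arrays did not overlap untreated ones at both times, with 906.9 and 975.8 at 8 h, 902.1 and 911.9 at 20 h, and 733.3, 690.7 and 901.9 in untreated testis (1398960_at). Its log2 fold change was 0.28 ± 0.15 (SE) at 8 h and 0.23 ± 0.15 at 20 h, and day-blocked 0.13 and 0.15. Its dimmer probe set 1377006_at gave -0.38 ± 0.25 and 0.22 ± 0.25, and day-blocked 0.01 and 0.33.

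**Figure D4:**
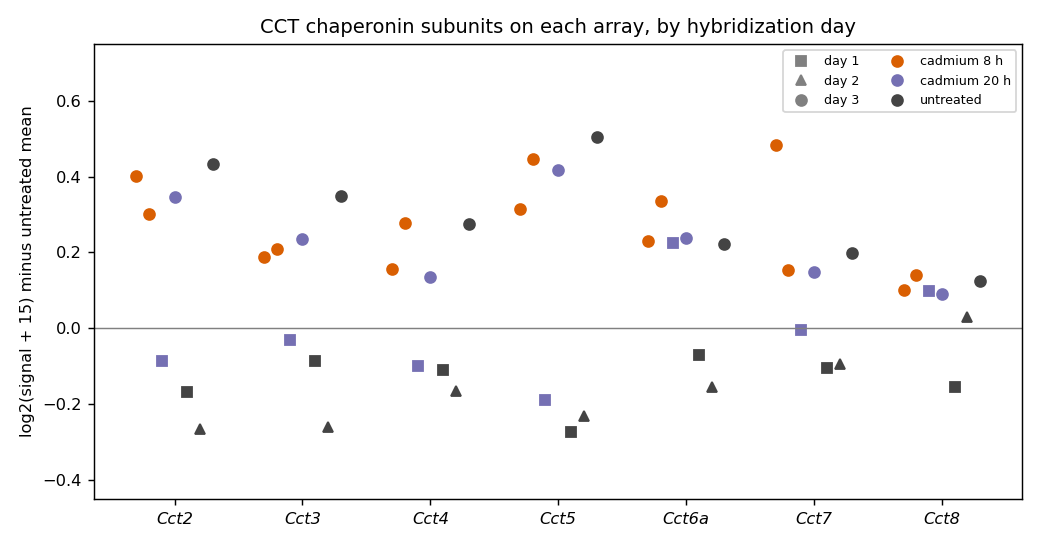
log2(signal + 15) of the 7 measured CCT subunits on each array minus the mean of the untreated arrays (y axis), coloured by group (cadmium 8 h, cadmium 20 h, untreated) and with a marker shape for each hybridization day. For Cct5 the day 3 arrays of all 3 groups, from 9987.6 to 11404.7 in signal, stand apart from the arrays of days 1 and 2.

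Chaperones of the endoplasmic reticulum, where secreted proteins fold, were measured for 10 of 12 listed genes. At 8 h, 5 were higher and 5 lower, and the median log2 fold change was 0.02. At 20 h, 7 were higher and 3 lower, with a median of 0.07. Day-blocked medians were 0.09 and 0.05. Hsp90b1, the Hsp90 of this compartment, had 2839.7 and 3962.5 at 8 h, 4039.0 and 3544.2 at 20 h, and 3826.2, 4304.4 and 2985.5 in untreated testis. Its groups overlapped, with -0.13 ± 0.19 (SE) at 8 h, which turned to 0.13 when day-blocked, and 0.05 ± 0.19 at 20 h, day-blocked 0.16. In the cytosol, Hsp90ab1, the constitutive Hsp90, had 3270.5 and 3098.0 at 8 h, 2390.9 and 2682.0 at 20 h, and 2399.8, 2246.4 and 3422.7 in untreated testis (1375336_at). It gave 0.27 ± 0.18 at 8 h and -0.06 ± 0.18 at 20 h, and day-blocked -0.02 and -0.18. Its other probe set gave -0.16 ± 0.16 and -0.24 ± 0.16, and day-blocked -0.03 and -0.25.

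Mitochondrial members were measured for 8 of 9 listed genes, with medians of 0.14 at 8 h and 0.01 at 20 h, and day-blocked 0.02 and 0.04. Hspa9, the mitochondrial Hsp70, had 1094.4 and 983.6 at 8 h, 2140.5 and 807.4 at 20 h, and 1804.4, 2050.1 and 903.7 in untreated testis (1388851_at). Here the order by day ran the other way from Hspe1 and Hspd1, its partners in mitochondrial protein folding: all day 3 arrays lay below the others. The log2 fold change was -0.52 ± 0.41 (SE) at 8 h and -0.18 ± 0.41 at 20 h, and both turned when day-blocked, to 0.30 and 0.04. The same-day differences were 0.27 and 0.12 at 8 h and 0.24 and -0.16 at 20 h. The other Hspa9 probe sets gave -0.25, 0.05 and -0.53 at 8 h, and day-blocked 0.56, 0.00 and -0.71. One of these, 1389930_at, was lower at 20 h on both arrays, with 58.9 and 58.8, against 72.1, 79.1 and 85.3 in untreated testis, and gave -0.34 ± 0.23, the same when day-blocked (-0.34). Dnajc15, a J protein of the mitochondrial inner membrane, lay above the untreated range on all 4 cadmium arrays, by 0.15 ± 0.14 at 8 h and 0.25 ± 0.14 at 20 h, and day-blocked by 0.01 and 0.20.

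On 7 member probe sets both 8 h arrays lay above all untreated arrays, against 7.59% of all probe sets tested, and on 7 they lay below, against 15.4%. At 20 h the counts were 6 above, against 4.65%, and 2 below, against 10.7%. Each count out of 98 members is near its background or under it, and both counts above include the Hspb8 probe set that passed the filter on cadmium arrays only.

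Dnajc2 was 1 of these at both times. It is a J protein of the ribosome that helps chains fold as they leave it, where it works together with Hspa14. Dnajc2 had 1768.1 and 1981.9 at 8 h, 1782.3 and 2043.2 at 20 h, and 1480.5, 1248.4 and 1539.0 in untreated testis (1373004_at). All 4 cadmium animals lay above all 3 untreated ones, and each above the untreated array of its day, by 0.20 and 0.36 on the log2 scale at 8 h and by 0.27 and 0.41 at 20 h. The log2 fold change was 0.40 ± 0.15 (SE) at 8 h, with limma's unadjusted p = 0.0235 and adjusted p = 0.836, and 0.43 ± 0.15 at 20 h, with unadjusted p = 0.0172 and adjusted p = 0.999. Blocking on the day gave 0.25 and 0.34. The other Dnajc2 probe set, 1391487_at, was too dim to be tested and its groups overlapped. It had 35.4 and 31.3 at 8 h, 40.5 and 3.5 at 20 h, and 31.1, 50.4 and 18.0 in untreated testis. Hspa14 went the other way at 8 h, with 99.2 and 77.8 at 8 h, 104.2 and 130.4 at 20 h, and 107.7, 159.0 and 137.2 in untreated testis. Both 8 h values lay below the untreated range, with -0.52 ± 0.24 (SE; limma's adjusted p = 0.836), and at 20 h the groups overlapped, with -0.17 ± 0.24. The day-blocked values were -0.56 and -0.05.

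Hspb7, a small heat shock protein best known from heart muscle, gave the other unadjusted p under 0.05 at 8 h. It had 216.7 and 200.5 at 8 h, 289.9 and 208.4 at 20 h, and 327.2, 298.6 and 285.4 in untreated testis (1392435_at). Both 8 h arrays lay below the untreated range, with -0.51 ± 0.19 (SE; limma's unadjusted p = 0.0226, adjusted p = 0.836), and day-blocked -0.36. The dimmer Hspb7 probe set gave 0.08 ± 0.28, and day-blocked 0.31. Dnajc7, a J protein with tetratricopeptide repeats, lay below at 8 h on 1381137_at, with -0.38 ± 0.34, and day-blocked -0.10, whereas its brighter probe set gave 0.07 ± 0.14, and day-blocked 0.19.

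The BAG family was measured for 6 of 6 listed genes, with medians of 0.18 at 8 h and 0.07 at 20 h, where after quantile normalization they were 0.02 and -0.02 and day-blocked 0.07 and 0.05. Bag5 had 3884.5 and 3825.9 at 8 h, 3089.9 and 4571.3 at 20 h, and 2916.4, 2763.7 and 3449.6 in untreated testis. Both 8 h arrays lay above all untreated ones, by 0.35 ± 0.18 (SE). At 20 h the log2 fold change was 0.31 ± 0.18, with 1 of the 2 arrays inside the untreated range. Day-blocked values were 0.08 and 0.24. Bag5 was also day-ordered, with every day 3 array above the others.

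The comparison of 20 h with 8 h asked how the members stood later in the response. Both 20 h arrays lay above both 8 h arrays on 16 member probe sets, against 15.2% of all probe sets tested, and below on 10, against 13.2%. Over the 71 genes the median was -0.02, with 34 higher and 37 lower. Of the stress-inducible genes 1 of 11 was higher at 20 h and 10 were lower, with a median of -0.09, and 3 and 8 after quantile normalization. In the day-blocked fit these counts were 4 and 7, with a median of -0.06. Hspe1 had 881.6 and 1186.2 at 20 h and 1568.1 and 1208.4 at 8 h, a log2 difference of -0.42 ± 0.25 (SE; limma's adjusted p = 1), and day-blocked -0.18. Both 20 h values lay below both 8 h values, and 1 of them came from day 1. Hsp90ab1 (1375336_at) differed by -0.33 ± 0.20, and day-blocked by -0.16. Dnajb12, a J protein of the endoplasmic reticulum membrane, differed by -0.34 ± 0.26 on 1374727_at, and day-blocked by -0.44. Its other probe set differed by 0.02 ± 0.26, and day-blocked by -0.10. The germ-cell median was 0.00, with 0.11 after quantile normalization and 0.09 day-blocked.

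Among members higher at 20 h, Dnajb6, a J protein that holds back protein aggregation, had 2278.0 and 1571.8 at 20 h and 666.6 and 1366.9 at 8 h. The log2 difference was 0.97 ± 0.59 (SE; limma's adjusted p = 1), and day-blocked 0.66. Untreated testis spanned both, with 3215.1, 706.0 and 1941.0, so the spread among untreated animals was larger than the difference between the times. Hspa9 on 1391915_at gave 0.79 ± 0.47, and day-blocked 0.62. This probe set was dim, with 66.0 and 52.0 at 20 h, 16.6 and 42.7 at 8 h, and 74.1, 23.6 and 53.5 in untreated testis. Hspa9 on 1389930_at went the other way, with -0.39 ± 0.25, and day-blocked -0.34. The brighter ones, 1370690_at and 1388851_at, gave 0.35 ± 0.44 and 0.34 ± 0.45, and day-blocked -0.24 and -0.25. Cct6a on 1377006_at gave 0.60 ± 0.28, and day-blocked 0.32, whereas its brighter probe set gave -0.05 ± 0.17, and day-blocked 0.03.

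Genes of the pathway outside these families were a list of 30 heat shock factors and co-chaperones, of which 27 were measured. None passed limma's test, and 0 had an unadjusted p under 0.05. At 8 h 17 were higher and 10 lower, and the median log2 fold change was 0.08. At 20 h the counts were again 17 and 10, with a median of 0.05. Hsf1, the main stress-activated heat shock factor, had 267.0 and 234.7 at 8 h, 321.7 and 238.3 at 20 h, and 291.7, 279.7 and 200.0 in untreated testis. Its transcript gave -0.02 ± 0.22 (SE) and 0.12 ± 0.22. The same-day differences of Hsf1 were 0.39 and 0.22 at 8 h, and 0.13 and 0.24 at 20 h. Untreated replicate 3, the day 3 control, had its lowest value. Hsf2, a factor of spermatogenesis in mice, gave -0.08 ± 0.14 and 0.01 ± 0.14. Hsf4, best known from the lens, was dim, with 46.1 and 33.4 at 8 h, 36.9 and 41.8 at 20 h, and 63.0, 61.8 and 74.0 in untreated testis. All 4 cadmium arrays lay below all untreated ones, with -0.58 ± 0.28 at both times. Pfdn6, a subunit of prefoldin, which hands unfolded actin and tubulin to CCT, had 449.6 and 899.4 at 8 h, 857.0 and 858.0 at 20 h, and 578.9, 608.6 and 597.3 in untreated testis. It gave 0.10 ± 0.24 at 8 h and 0.52 ± 0.24 at 20 h. Hsf1, Hsf2, Hsf4 and Pfdn6 were picked with their values in view.

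**Figure D5:**
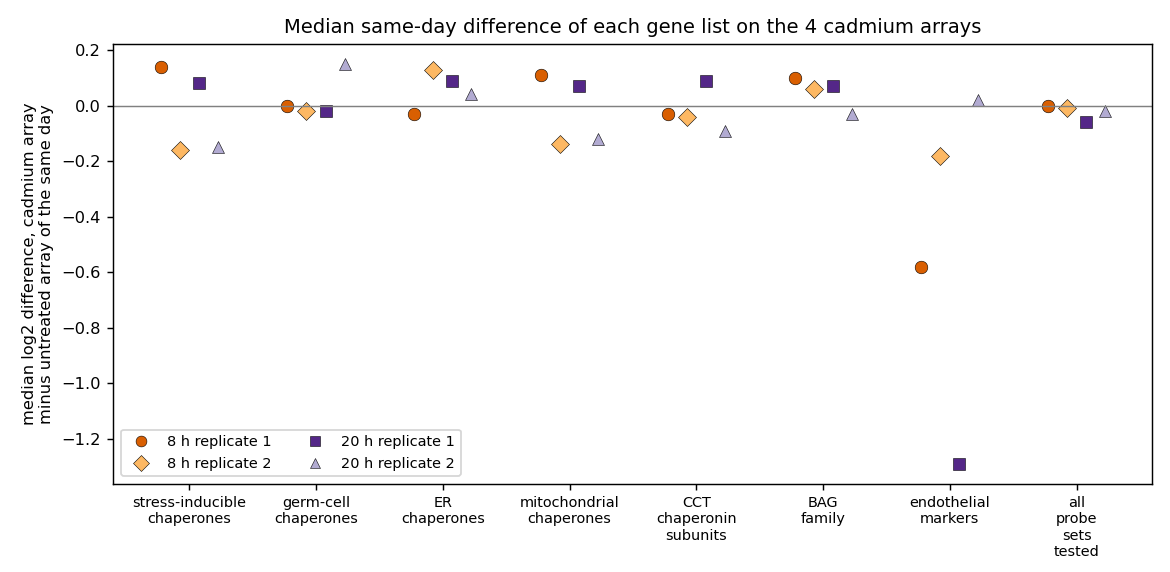
Median same-day difference in log2(signal + 15) of each gene list (x axis) on the 4 cadmium arrays (y axis, cadmium array minus the untreated array of its day). The stress-inducible list lies above 0 on 8 h replicate 1 and 20 h replicate 1 (0.14 and 0.08) and below 0 on 8 h replicate 2 and 20 h replicate 2 (-0.16 and -0.15), and the mitochondrial list lies likewise (0.11, 0.07, -0.14 and -0.12).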

How the data were processed

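Total RNA from 7 rat testes had been hybridized to Affymetrix Rat230_2 arrays. The deposited signal intensity of each probe set is on a linear scale, produced by the authors with MAS 5.0 and analysed in GeneSpring 7.2 according to the series' design description. Every array had a trimmed mean of 250.0, so the values had been scaled to a common target. The experiment records hold other information per the file headers (settings, not measurements) and gave the hybridization day. Untreated replicate 2 was stained at 25 °C for 600 s, and the 6 remaining ones at 35 °C for 300 s. Its record names mouse as the sample type, and it was kept. The number of arrays limits the precision.

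Gene names came from the platform annotation: 20826 probe sets name 1 gene, 436 several and 9780 none. The RefSeq table held the Entrez ID of all 113 members and changed 0 symbols. Probe sets are given without coordinates, since their genome build is not given in the sources used here. One model held all 3 groups, fitted in limma 3.58.1 (R 4.3.3, eBayes with intensity trend) on log2(signal + 15) of the 20857 probe sets above the 40th percentile on at least 2 arrays. Benjamini-Hochberg adjustment ran over all of them, with a threshold of 0.05, and the procedure was tested on simulated data. Each gene was represented by its probe set of highest mean in lists. Genes were named from a fixed set of well-known members and, per comparison, as the 4 largest rises and 4 largest falls among tested probe sets whose groups do not overlap. Dnajb3, Dnajb4, Dnajb7, Cct5, Hspa12b and Hspbp1 were added outside this rule, with their values known. Alternatives were pseudocounts of 1 and 50, no filter or the 60th percentile, quantile normalization, scaling to the 75th percentile, no intensity trend, the day or the replicate number as a block, and each array left out. The members and lists were chosen with earlier results of these data known.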

Additional observations from a re-analysis of the deposited data

How the results depend on the processing

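No member passed limma's test under any alternative run, in any comparison. Over all probe sets limma made calls under 2 of them: without 8 h replicate 2 it called 1 at 8 h and 1 between the times, and without 20 h replicate 2 it called 8 at 20 h and 1 between the times. Of 1518 values of named members under the alternatives, 1442 kept within 1 SE and 106 changed sign, 22 of these with the day as a block and 13 with quantile normalization. The stress-inducible median at 8 h was 0.17, and 0.03 when the fit blocked on the day. The germ-cell median at 8 h was 0.14, and -0.11 with quantile normalization, 0.25 with scaling to the 75th percentile and -0.05 when blocking on the day. Quantile normalization gave -0.01 at 20 h and 0.11 between the times, against 0.10 and 0.00. The causes were not tested. With 1 array left out, the stress-inducible median ran from 0.04 to 0.29 at 8 h, from 0.02 to 0.11 at 20 h and from -0.21 to -0.02 between the times. The germ-cell median ran from 0.04 to 0.16, from 0.02 to 0.25 and from -0.02 to 0.10. Where 1 array of a pair was left out, the lone array was assumed to vary like the others. The median of all probe sets at 8 h was -0.08, 0.01 with quantile normalization and 0.02 with scaling to the 75th percentile. The differences between replicates 1 and 2 correlated at 0.00, 0.09 and 0.14 between groups over 20857 probe sets. These replicates also differ in hybridization day in the untreated and 20 h groups but not at 8 h. The correlations therefore cannot show whether the replicate numbers pair the arrays. With the replicate block no member was called, and the germ-cell median was 0.04 at 8 h and 0.25 at 20 h. Untreated replicate 3 is alone in its block, and leaving it out gave the same medians, so the replicate block is no separate check. The block by day or by replicate leaves 2 residual degrees of freedom in place of 4.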

Other observations

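Probe sets of the same gene often differed in sign. Of 23 genes with more than 1 tested probe set, all probe sets had the same sign in 9 at 8 h, in 13 at 20 h and in 9 between the times. Hspa12b, a distant Hsp70 relative made in endothelial cells, had 12.5 and 23.1 at 8 h, 22.3 and 28.3 at 20 h, and 35.7, 35.6 and 33.1 in untreated testis on 1381909_at. All 4 cadmium arrays lay below all untreated ones, as was the case for the summed endothelial markers, but this probe set was too dim to be tested. On 20 h replicate 2, however, 5 endothelial markers were above the same-day untreated array and 3 below, with a median difference of 0.02. The brighter Hspa12b probe set, 1394442_at, overlapped, with 27.0 and 40.5 at 8 h, 40.9 and 39.5 at 20 h, and 64.5, 60.5 and 3.4 in untreated testis. The dimmest, 1389604_at, was not tested and overlapped at 20 h. It had 2.3 and 2.0 at 8 h, 8.3 and 7.2 at 20 h, and 8.1, 8.6 and 3.0 in untreated testis. Hspbp1, which the naming rule takes in although it is an exchange factor of Hsp70 and not a small heat shock protein, gave 0.02 ± 0.17 (SE) at 8 h and 0.04 ± 0.17 at 20 h.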
